A study of Mus musculus with 8 samples.

Results

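The miR-297, miR-466, miR-467 and miR-669 families are groups of rodent miRNAs, short RNAs that repress messenger RNAs by pairing with them. Members were taken by name: every mouse miRNA on the array called miR-297, miR-466, miR-467 or miR-669 followed by a letter, with any arm suffix. That gave 61 of the 1881 miRNAs on the array. The scanner software called 10 of them detected on at least 1 array and 51 on none, and 7 were detected on all 4 arrays of a group and were tested. Of these 7, 6 were lower in the kidneys of diabetic mice, with log2 changes from -0.71 to -0.37, and none was higher; of all 316 miRNAs tested, 41.8% differed, 17.4% lower and 24.4% higher.

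The study measured miRNAs in total kidney RNA on 8 single-colour Agilent arrays, 1 per sample, from male mice aged 28 weeks. The diabetic group was 4 samples of C57BLKS/J Iar mice labelled +Leprdb/+Leprdb. These db/db mice carry the mutant leptin receptor on both chromosomes in every tissue and become obese and diabetic. The control group was 4 samples of the same strain labelled m+/m+. Titles call the controls dbm and the source label calls them m/m, so whether they carried a db allele was not settled. No treatment is given for either group. Separate animals are not stated for the samples, and p-values then reflect only how much these samples spread, which may be technical. The arrays shared 1 slide and 1 scan. Controls filled row 1 of that slide and db/db samples row 2, so effects of the row and of the genotype cannot be told apart.

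Most hairpins of these families lie in a single intron of Sfmbt2, a gene for a Polycomb-related protein, and arose there by repeated duplication in rodents. Sfmbt2 is imprinted and is expressed from the paternal copy in extra-embryonic tissue, and the miRNA cluster is best known for its role in the placenta. Many members are built of alternating uracil and guanine on the 5p arm and of alternating adenine and cytosine on the 3p arm. Members of these families have been studied outside the placenta too: miR-467 as a glucose-induced repressor of thrombospondin-1, miR-466l as a binder of the interleukin-10 messenger in macrophages, and miR-669a as a regulator of muscle differentiation.

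RefSeq (build GRCm38.p6) gave mature sequences for 7 members, of which 3 were detected. They are shown because the sequence that miRNAs use to find targets, the seed at bases 2 to 8 (capitals), can be read from them next to the repeat that follows. They run 5′ to 3′.
miR-466q: gUGCACACacacacauacgu
miR-467f: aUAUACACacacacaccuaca
miR-466i-3p: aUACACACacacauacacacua
miR-466q lies at chr3:28419988-28420007 on the plus strand, within the Tnik gene. miR-467f lies at chr11:69635419-69635439 on the minus strand, within Fxr2. miR-466i-3p lies at chr13:17747552-17747573 on the plus strand, within Cdk13. None of these 3 host genes is Sfmbt2. By hairpin name, all 7 members with a sequence come from outside Sfmbt2. Neither their positions nor their seeds therefore describe the members within Sfmbt2. Exon and intron positions were not assessed. The 7 members with a sequence had 7 different seeds, and none of those seeds occurred in another mature miRNA with a RefSeq sequence. Most of the 61 members had no such sequence, so whether they share a seed with these 7 was not assessed.

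The array measures each miRNA with short DNA probes complementary to its 3′ end. The longest probe of each detected member is shown because its letters are what the signal of that member rests on. Capitals mark the longest run of alternating thymine and guanine, or for miR-466i-5p of cytosine and adenine. A thymine-guanine run in a probe stands for a run of adenine and cytosine in the miRNA.
miR-466f-3p: gtgtgtaTGTGTGTGTG
miR-466h-3p: GTGTGTGTGTGcgt
miR-466i-3p: tagtgtgtaTGTGTGTGTG
miR-466i-5p: CACACACACACACACA
miR-466q: acgtaTGTGTGTGTGTG
miR-467b-3p: gtgttgGTGTGTGTat
miR-467f: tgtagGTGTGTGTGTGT
miR-669c-3p: tttactTGTGTGTGTGTG
miR-669f-3p: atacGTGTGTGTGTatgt
miR-669p-3p: atacGTGTGTGTGTGTatg
A pair of members that no array detected is set beside them, because their runs are almost as long.
miR-467g: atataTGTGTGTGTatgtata
miR-669a-3-3p: atacaTGTGTGTGTatgttatg
The array design places the probe of miR-466i-3p at chr13:17839390-17839407 of mouse build mm9. It places miR-669p-3p at chr2:10410799-10410817 and chr2:10418180-10418198, miR-467b-3p at chr2:10402927-10402941, miR-669c-3p at chr2:10430991-10431007 and miR-669f-3p at chr2:10388918-10388934. The design gives no position for the other 5 detected members.

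Signals are given as log2 of the scaled signal, in arbitrary fluorescence units after each array was scaled to the same 75th percentile. Signals under a floor of 1.48 were set to it. Levels of different miRNAs are not compared, because each probe has its own efficiency. A call means an adjusted p under 0.05 with limma after Benjamini-Hochberg adjustment over the 316 miRNAs tested. Of the 7 tested members 6 were called lower in db/db kidneys and 0 higher, beside 17.4% and 24.4% of all tested miRNAs. In 6 of the 7 every control array was above every db/db array, which held for 16.8% of the 316, while the reverse held for 24.7% of the 316 and for 0 of the 7. Of the 5 members detected on all 8 arrays, 4 were called lower in a fit over the 269 such miRNAs, where 17.1% were called lower. The median change of the 7 members was -0.54, and that of all 316 miRNAs was -0.02. Falls of this size were ordinary among called miRNAs: the median of all those called lower was -0.47. RNA of the whole kidney was measured, so fewer cells of a type and less RNA per cell cannot be told apart.

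**Figure D1:**
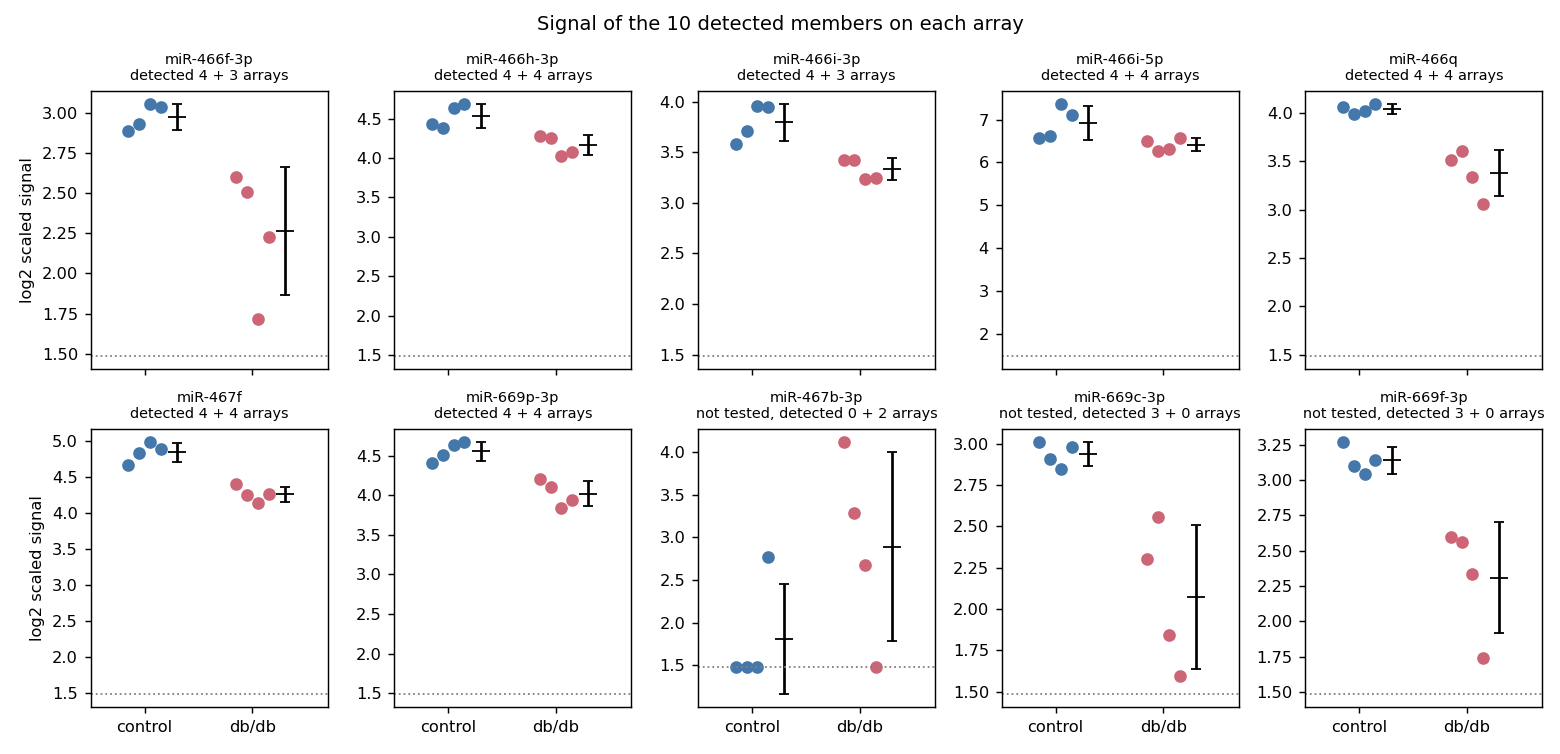
Log2 scaled signal (arbitrary units) of the 10 detected members, 1 panel each with its own scale, for the 4 control (blue) and the 4 db/db arrays (red) in the order of their replicate numbers. Bars give the mean and SD (n = 4), the dotted line is the floor of 1.48, and panel titles give the control plus db/db arrays that detected the miRNA. In 8 panels every control point lies above every db/db point, while miR-466i-5p and miR-467b-3p overlap. Among all 316 tested miRNAs the former held for 16.8%, and the share among all detected miRNAs was not computed. Among the 8, miR-669c-3p and miR-669f-3p were detected only on control arrays. miR-466f-3p and miR-466i-3p passed the filter only through the controls.

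The miR-466 family gave 5 of the 7 tested members, all from a family of 23 on the array, and 4 of them were called lower, beside 17.4% of all tested miRNAs. Of these 4, 2 were detected on all 8 arrays and 2 passed the filter only through the controls. miR-466q measured 4.06, 3.98, 4.02 and 4.10 on the log2 scale on the control arrays, taken in the order of their replicate numbers as in all such lists, and 3.51, 3.60, 3.34 and 3.06 on the db/db arrays. The 4 control values were close together, and the highest db/db value stayed below the lowest of them. The mean was 4.04 ± 0.05 in controls and 3.38 ± 0.24 in the db/db group (SD, n = 4 each), a change of -0.66 ± 0.11 (SE) or 1.58-fold lower, with an adjusted p of 0.00206 in limma after Benjamini-Hochberg adjustment.

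miR-466i-3p, processed from the 3′ arm of a hairpin within Cdk13, measured 3.58, 3.72, 3.95 and 3.95 in controls and 3.43, 3.43, 3.23 and 3.24 in db/db kidneys. Control replicates 3 and 4 were the highest and db/db replicates 3 and 4 the lowest, and the groups did not overlap. Its level changed by -0.47 ± 0.10 (SE), or 1.38-fold lower (limma, Benjamini-Hochberg adjusted p = 0.00565). It was detected on 3 of the 4 db/db arrays, so it passed the detection filter through the controls.

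miR-466h-3p measured 4.43, 4.38, 4.63 and 4.69 in controls and 4.28, 4.26, 4.02 and 4.08 in db/db kidneys. The groups did not overlap, but db/db replicates 1 and 2 lay close under control replicates 1 and 2. This gave the smallest change among the called members, -0.37 ± 0.09 (SE) or 1.29-fold lower (limma, Benjamini-Hochberg adjusted p = 0.0132).

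miR-466f-3p measured 2.89, 2.93, 3.05 and 3.04 in controls and 2.60, 2.51, 1.71 and 2.22 in db/db kidneys. Control values were tight (SD 0.08), db/db values were spread (SD 0.40) with replicate 3 lowest, and the groups did not overlap. The change was -0.71 ± 0.18 (SE), or 1.64-fold lower (limma, Benjamini-Hochberg adjusted p = 0.0135). The value of db/db replicate 3 lay near the floor of 1.48. From the shortest to the longest, the 4 probes of miR-466f-3p changed by 0, -0.10, -0.55 and -0.61. With the median over probes it was not called (limma, Benjamini-Hochberg adjusted p = 0.0793). Like miR-466i-3p, miR-466f-3p was detected on 3 of 4 db/db arrays. Both miRNAs that were missed on 1 db/db array were missed on replicate 2, which is not the array with their lowest signal.

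miR-466i-5p, the opposite arm of the miR-466i hairpin and a nearly pure repeat of uracil and guanine, did not pass the test. It measured 6.57, 6.63, 7.37 and 7.11 in controls and 6.50, 6.26, 6.31 and 6.57 in db/db kidneys. Control replicates 3 and 4 were high, while control replicates 1 and 2 lay near the highest db/db value, and the groups overlapped by 0.002 on the log2 scale. The difference was -0.51 ± 0.18 (SE), with a 95% interval of -0.93 to -0.08 before adjustment and an adjusted p of 0.0564 in limma after Benjamini-Hochberg adjustment. The interval includes the change of its partner arm, and a difference between the arms was not tested.

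The miR-467 family had 12 members on the array, of which 2 were detected and 1, miR-467f, was tested. miR-467f measured 4.67, 4.83, 4.99 and 4.89 in controls and 4.40, 4.24, 4.13 and 4.26 in db/db kidneys. The groups did not overlap, and the spread within each was small. The mean was 4.84 ± 0.13 in controls and 4.26 ± 0.11 in the db/db group (SD, n = 4 each), a change of -0.59 ± 0.08 (SE) or 1.50-fold lower. Its adjusted p of 0.000841 in limma after Benjamini-Hochberg adjustment was the lowest of the 7 members.

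miR-467b-3p was the only detected member with a higher mean in db/db kidneys, and it was not tested because it was detected on no control array and on 2 db/db arrays. Its log2 signal was at the floor of 1.48 in control replicates 1 to 3 and 2.77 in control replicate 4. In db/db replicates 1 to 4 it was 4.12, 3.29, 2.67 and 1.48. Only db/db replicates 1 and 2 lay above the highest control, and db/db replicate 4 was itself at the floor. No fold is given, since db/db replicates 3 and 4 were not detected either.

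The miR-669 family had 23 members on the array, of which 3 were detected and 1, miR-669p-3p, was tested. miR-669p-3p measured 4.42, 4.51, 4.63 and 4.68 in controls and 4.21, 4.10, 3.84 and 3.94 in db/db kidneys. Every control array was above every db/db array, with db/db replicates 3 and 4 the lowest. The mean was 4.56 ± 0.12 in controls and 4.02 ± 0.16 in the db/db group (SD, n = 4 each), a change of -0.54 ± 0.09 (SE) or 1.45-fold lower, with an adjusted p of 0.00259 in limma after Benjamini-Hochberg adjustment.

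miR-669c-3p and miR-669f-3p were each detected on control replicates 1, 3 and 4 and on no db/db array, 1 array short of being tested. miR-669c-3p measured 3.01, 2.91, 2.85 and 2.98 in controls and 2.30, 2.56, 1.84 and 1.60 in db/db kidneys. miR-669f-3p measured 3.27, 3.10, 3.04 and 3.14 in controls and 2.60, 2.56, 2.33 and 1.74 in db/db kidneys. For both, every control array was above every db/db array, and the db/db values had no detection call behind them. The control mean of miR-669c-3p was at least 1.77-fold higher than the bound for db/db kidneys, and that of miR-669f-3p at least 1.73-fold higher, with control replicate 2 counted at its undetected signal. The bound averages, over the dim arrays, whichever is highest of the floor, the signal of the miRNA itself and the dimmest signal that the array called detected. The array design lists the probes of miR-669f-3p also for miR-669a-3p and miR-669o-3p, so these 3 miRNAs cannot be told apart.

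None of the 3 members of the miR-297 family was detected on any array. The 5p arms of the hairpins were rarely seen: 1 of 25 members named 5p was detected, against 7 of 26 named 3p and 2 of 10 without an arm in the name. Both arms of 18 hairpins were on the array. Neither arm was detected for 13 of them, both for miR-466i and only the 3p arm for 4: miR-466f-5p, miR-466h-5p, miR-467b-5p and miR-669f-5p were detected on 0 arrays. The scaled signal of miR-466h-5p, studied elsewhere as a pro-apoptotic miRNA, ran from -1.44 to -0.31 in controls and from -1.66 to 0.62 in db/db kidneys, all under the floor of 2.80 on this linear scale. Over the 51 undetected members the scaled signal ran from -6.05 to 5.88. Among them, 2 had every control array above every db/db array and 1 the reverse, and among 1440 other miRNAs never detected these shares were 0.833% and 2.99%.

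**Figure D2:**
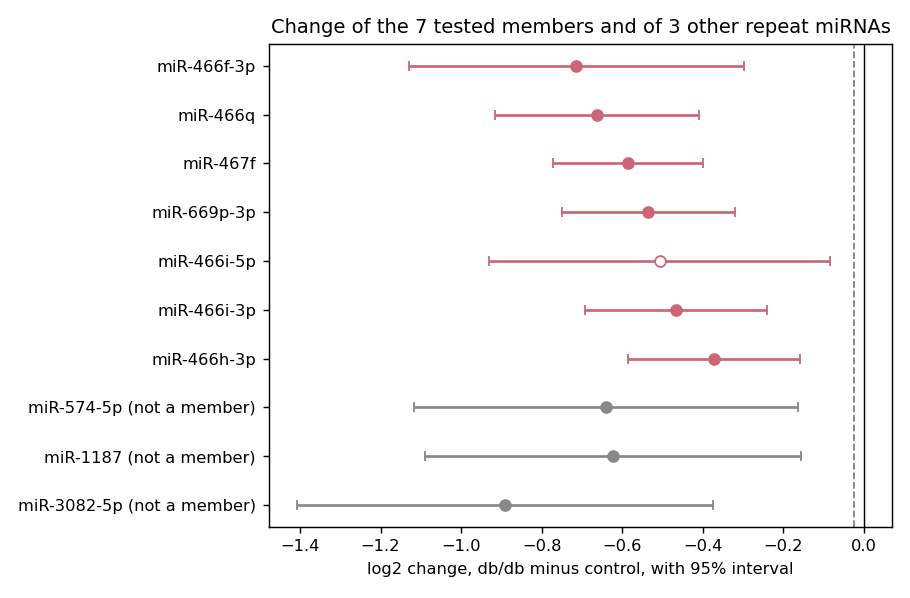
Log2 change (db/db minus control) with its 95% interval before adjustment for the 7 tested members (red) and for 3 miRNAs outside the families whose probes hold a cytosine-adenine run (grey). Filled points passed at an adjusted p under 0.05; the dashed line is the median of all 316 tested miRNAs (-0.02). All 10 points lie between -0.89 and -0.37, and the open point is miR-466i-5p.

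Detection in these families went with the length of the thymine-guanine run in the probe. The run lengths were compared after the values had been seen, so what follows is a description with no test. All 8 members with a run of 10 or more bases were detected, 6 of them were tested and all 6 were called lower, beside 17.4% of all tested miRNAs. Of those 6, 4 were detected on all 8 arrays, and miR-466f-3p and miR-466i-3p passed the filter only through the controls, where they were higher. With a run of 8 or 9 bases, 1 of 9 members was detected, miR-467b-3p. With a shorter run, 1 of 44 members was detected, miR-466i-5p, whose probe instead holds a cytosine-adenine run of 16 bases. Of the 38 members with both kinds of run under 8 bases, 0 were detected. Among the 1820 other miRNAs 20.9% were detected and the longest thymine-guanine run was 7 bases, so no miRNA outside the families had such a run.

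**Figure D3:**
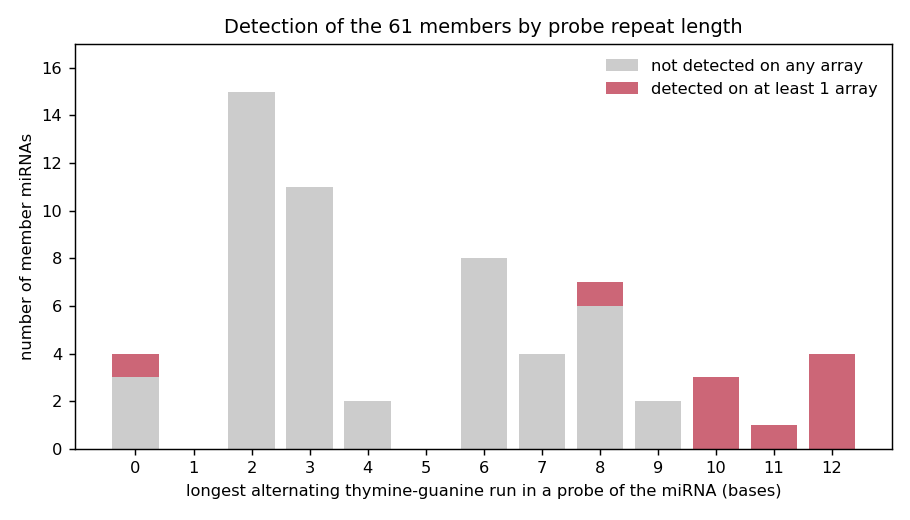
Number of the 61 member miRNAs (bars, from 0) by the longest alternating thymine-guanine run in any of their probes, in bases. Red parts were detected on at least 1 array and grey parts on none; all 8 members at 10 bases or more were detected, 1 of 9 at 8 or 9 bases and 1 of 44 below.

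The motif TGTGTGTG, read on the probe strand, was held by 31 of all 4415 miRNA probes (0.702%), and all 31 belonged to 11 members of these families, of which 8 were detected. The motif CACACACA was held by 18 probes (0.408%), of which 9 belonged to 6 members, with miR-466i-5p the only one detected. Each motif is the other read on the opposite strand. The undetected miR-467g and miR-669a-3-3p printed above hold TGTGTGTG as well, with runs of 9 bases. A motif match is a property of the probe and does not show which RNA bound it.

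The probes of the called members shared sequence. Among the 15 pairs of the 6 called members, the longest stretch that probes of a pair shared was 10 to 17 bases, with a median of 11. The probe of miR-466f-3p lies whole within that of miR-466i-3p. Whether part of one member's signal came from another was not tested. At the level of single probes, 17 of the 18 probes of tested members were lower in db/db kidneys and 13 had groups that did not overlap. The remaining probe, of miR-466f-3p, was at the floor on every array. Probes of the same miRNA measure the same RNA, so these counts add no replication to the 7 members. The share over all probes of the array was not computed. All 4 probes of miR-669p-3p had every control array above every db/db array, with changes from -0.66 to -0.36.

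Outside the families, 4 miRNAs on the array had a probe with a cytosine-adenine run of 9 or more bases, and 3 of these were detected, tested and called lower, beside 17.4% of all tested miRNAs. They are shown because they carry a uracil-guanine repeat. Their seeds (capitals, bases 2 to 8) differ from those of the 7 members with a RefSeq sequence. Whether other members, among them the 5p arms, share these seeds was not assessed.
miR-574-5p: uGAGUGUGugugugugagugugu
miR-1187: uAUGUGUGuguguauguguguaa
miR-3082-5p: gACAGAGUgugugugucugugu
miR-574-5p, known as a decoy for the RNA-binding protein CUGBP1, measured 4.94, 5.03, 5.87 and 5.60 in controls and 4.80, 4.66, 4.55 and 4.87 in db/db kidneys. The groups did not overlap, and the change was -0.64 (limma, Benjamini-Hochberg adjusted p = 0.0386). miR-1187 was detected on 3 db/db arrays and miR-3082-5p on 2, so both passed the filter only through the controls, where they were higher. miR-1187 changed by -0.62 (adjusted p = 0.0395 by the same test) with overlapping groups, and miR-3082-5p by -0.89 (adjusted p = 0.0134) without overlap. On the 4 control arrays, miR-466i-5p and these 3 miRNAs had the same order, with replicate 3 highest, then 4, 2 and 1, and SDs of 0.39 to 0.45. The 6 called members had control SDs of 0.05 to 0.18, and 3 of the 6 had that order. The share of all tested miRNAs with that order was not computed. The list of repeat or repeat-like miRNAs outside the families had 5 tested members, with a median change of -0.62. Of these, 3 were called lower and 1 higher, beside 17.4% and 24.4% of all tested miRNAs.

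By position, the label Sfmbt2 held for most members on the array but not for most of the 7 tested. RefSeq's table of the GRCm38.p6 assembly holds 79 lettered hairpin genes of these families, 70 within Sfmbt2 and 9 elsewhere, spread over 6 chromosomes. The copies within Sfmbt2 include 8 of Mir466b, 10 of Mir467a and 12 of Mir669a. By hairpin name, 50 members came from within Sfmbt2, 8 from elsewhere, 2 from both and 1 was unmatched. Of the 8, the undetected miR-669n lies on chromosome 3 in RefSeq. The array design instead places its probe at chr2:10430951-10430967 of mm9, and this conflict was not resolved. Of the 50 within Sfmbt2, 5 were detected and 2 tested, miR-466h-3p and miR-669p-3p. Both were called lower, beside 17.4% of all tested miRNAs, with a median change of -0.45. Of the 8 from elsewhere, 4 were detected and tested, miR-466i-3p, miR-466i-5p, miR-466q and miR-467f. All 4 had lower means in db/db kidneys and 3 were called lower, beside the same 17.4%. The median change of the 4 was -0.55. miR-466f-3p, with hairpins in both places, changed by -0.71. Of the members counted here, miR-466i-3p and miR-466f-3p passed the filter only through the controls, where they were higher. A difference between the positions was not tested, and probes of called members from both positions shared 10 or more bases, so the falls cannot be assigned to hairpins of either.

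Other imprinted or placental miRNAs were a separate list of 15 on the array, with 11 undetected throughout and 4 seen on at least 1 array. Of its 3 tested members, miR-335-5p, miR-296-5p and miR-298-5p, 1 was called higher in db/db kidneys and 0 lower, with a median change of 0.08. Among all tested miRNAs 24.4% were called higher and 17.4% lower.

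The arrays resembled each other in depth of detection, with 305 to 352 miRNAs detected per control array and 289 to 358 per db/db array. Members detected numbered 7 to 9 and 6 to 8. The 7 tested members had their highest value on control replicate 3 (4 members) or 4 (3 members), and their lowest on db/db replicate 3 (5 members), 2 or 4. As a check of the tissue label, all 5 markers of kidney tubules were tested. Of these, 3 were called higher and 0 lower in db/db kidneys, beside 24.4% and 17.4% of all tested miRNAs. Their summed scaled signal was 11602 to 12229 in controls and 12973 to 13451 in db/db kidneys. Markers of another cell type were lower as well: all 5 leukocyte miRNAs were called lower, beside 17.4% of all tested miRNAs. Their median change was -1.39. Their summed scaled signal was 577 to 752 in controls and 233 to 343 in db/db kidneys, with 0 of the 5 undetected throughout a group. Their part in the falls of the members was not tested. The liver miRNA miR-122-5p was undetected on all control arrays and had scaled signals of 50.2 to 133 in db/db kidneys, and its part was not tested either. The pairs of markers for erythroid cells, endothelium and smooth muscle with pericytes gave no call.

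**Figure D4:**
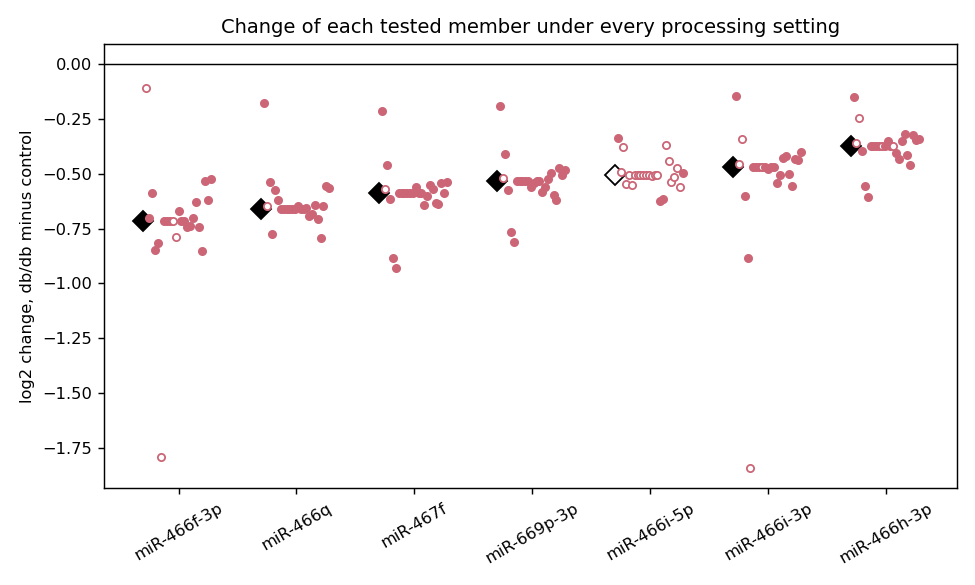
Log2 change (db/db minus control) of the 7 tested members under the settings reported (diamonds) and 24 alternative settings (circles), filled where the adjusted p was under 0.05. Every point lies below 0, and the points nearest to 0 come from the normexp background correction. The lowest points, -1.79 for miR-466f-3p and -1.84 for miR-466i-3p, come from the authors' deposited table, which follows a signal that holds a fill of 0.1 on an array without detection.

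Across 24 alternative ways of processing the data, all 166 fitted changes of the 7 members were negative. miR-466q, miR-467f and miR-669p-3p were called in 23 of 24, while miR-466h-3p was called in 20 of 24, miR-466f-3p and miR-466i-3p in 19 of 23, and miR-466i-5p in 4 of 24. With any 1 of the 8 arrays left out, all 6 calls were kept, and miR-466i-5p passed without control replicate 1 (adjusted p = 0.0274) or without control replicate 2 (adjusted p = 0.0372), both in limma after Benjamini-Hochberg adjustment. When each array was scaled by the percentile of all miRNAs in place of those detected throughout, miR-466f-3p was the only member called, and 3.48% of tested miRNAs were called lower. Without a detection filter, 3 members and 1.44% of 1881 miRNAs were called lower. Without scaling, 4 members were called (miR-466f-3p, miR-466q, miR-467f and miR-669p-3p), where 8.86% of miRNAs were called lower and the median of all miRNAs moved from -0.02 to 0.10.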

How the data were processed

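Spot intensity values were deposited by the authors as scanner files. They come from Agilent Feature Extraction, version 12.0.3.1 in the headers, with spatial detrending switched on and background correction off. Per the labels' protocols, the Cy3 label was put on 100 ng of RNA. A further table deposited by the authors gives a linear ratio per miRNA and array, with column medians of 1.11, 1.10, 1.10 and 0.980 (controls) and 0.857, 1.01, 0.994 and 0.947 (db/db). Compared with the scanner values, a higher ratio meant more signal, and the choice of the divisors for miRNAs and arrays stayed unknown. It served only as an alternative.

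For each miRNA, processed signals of spots without an outlier flag were averaged within and then across probes. Outlier flags fell on 49 to 91 of the 1830 member spots per array, and no member spot was saturated. Over the 269 miRNAs that all 8 arrays detected, the 75th percentile was set equal, and signals under 2.80 (1.48 as log2) were raised to it. limma 3.58.1 (lmFit, eBayes, 2-sided) in R 4.3.3 with the data.table package (1.17.8) tested the 316 miRNAs that every array of a group detected. On simulated data for these 316 miRNAs, log2 changes of 0.25, 0.5, 1 and 2 were found in 66.7%, 89.7%, 97.5% and 99.4% of cases. In these runs 2.5% of unchanged miRNAs were called. Each of the 20 runs changed 200 miRNAs and gave each miRNA independent normal noise. The data gave 132 calls, and a larger changed share makes the adjusted threshold easier to pass, so these rates may be too high for the data. The number of arrays limits precision.

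The members and the lists were chosen with earlier results of these data known. Every member detected on an array was named; other members were named as the other arm of one of these, or for the run in their probe after values had been seen. Sequences are from the array design and from RefSeq, whose entries matched 1608 of the 1881 miRNAs by name.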

Additional observations from a re-analysis of the deposited data

Results flagged for a closer look

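Among the 20 groups of 4 arrays examined for the 10 detected members, 1 held an array far from the others: miR-467b-3p in controls. Its log2 signal was at the floor of 1.48 on 3 control arrays and 2.77 on the other, so the gap made up the whole range (a ratio of 1). With 3 arrays set to the floor that ratio follows from the floor. On the scaled signal without a floor it was 0.484, under the critical value, and none of the 4 control arrays detected this miRNA. For values not set to a floor, chance gives such a gap in about 1 in 20 groups.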

How the results depend on the processing

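With 4 arrays a group, precision is limited. The count of members called lower, 6 as reported, was 1 with the percentile over all miRNAs and 3 without a detection filter (miR-466q, miR-467f and miR-669p-3p); the calls over all miRNAs numbered 34 and 97 there, against 132. Leaving out 1 array gave counts of 6 to 9, the highest without control replicate 2, where miR-669c-3p and miR-669f-3p were also tested, having passed the filter only through the controls. Calls over all miRNAs numbered 114 to 153 in these fits. The median change of tested members within Sfmbt2 was -0.17 with normexp (offset 50), -0.66 with the gene total signal and -0.71 in the authors' deposited table. For those elsewhere it was -0.19, -0.73 and -0.78, and -0.42 without scaling. The cause was not tested. With the replicate number as a block, 5 members were called and miR-466h-3p was not (adjusted p = 0.0570 in limma), with 144 calls over all miRNAs. Deviations of same-numbered arrays correlated at -0.43, 0.41, -0.05 and -0.07, so the numbers were not taken to pair the samples. Taking off the median signal of never-detected miRNAs, an alternative chosen after seeing the data, gave 7 member calls and 145 calls over all 316 miRNAs. There miR-466i-5p passed narrowly (adjusted p = 0.04998 in limma after Benjamini-Hochberg adjustment).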
